A study of Mus musculus with 17 samples.

Results

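The 7 genes Fabp4, Gpihbp1, Car4, Rgcc, Meox2, Tcf15 and Cav1 are a set of transcripts of the capillary endothelium that takes up fatty acids in the heart. They were found by gene identifier in a table of 31647 features and all 7 had a feature of their own. Transcripts were counted in hearts of male wild-type C57BL/6J mice aged 8 to 11 weeks, 5 days after surgery. In 9 mice the left anterior descending coronary artery (LAD) was permanently ligated without reperfusion and RNA came from the infarct zone (IZ), and in 8 sham mice the same operation was done without ligation and RNA came from the left ventricle (LV). Each library stood for 1 mouse, and no group carried a genetic change. The sequencing method, massive analysis of cDNA ends (MACE), reads the 3′ end of transcripts, so that counts were compared between genes without correction for length. The comparison asks how these transcripts differed between the IZ 5d post-MI (myocardial infarction) and the LV of sham hearts.

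The heart burns mainly fatty acids, and its capillaries are of the continuous type, so that the fuel has to cross the endothelial cells. Gpihbp1 carries lipoprotein lipase from the interstitium to the luminal side of the capillary and anchors it there. Fatty acids that are freed from lipoproteins enter with the help of the scavenger receptor Cd36, and Fabp4 binds them inside the cell. Meox2 and Tcf15 are transcription factors that form a dimer and drive fatty acid uptake genes in heart endothelium. Car4 is a carbonic anhydrase on the capillary surface, Rgcc is a regulator of the cell cycle found in capillary endothelium and Cav1 is the main coat protein of caveolae, the membrane pits that are abundant in capillaries. Fabp4 is also made by adipocytes and macrophages and Cav1 by adipocytes, fibroblasts and smooth muscle cells.

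The RefSeq promoter table for GRCm38.p6 held 4 of the 7 genes, and their upstream stretches are shown so that genes with a change in the same direction can be compared for shared letters. Each run below covers the 250 bases upstream of the transcript start, 5′ to 3′ on the gene's strand, and capitals mark the E-box CANNTG, the motif that basic helix-loop-helix factors such as Tcf15 bind. The Cav1 stretch lies at chr6:17306085-17306334 on the plus strand and belongs to the first of 2 listed starts. The Meox2 stretch lies at chr12:37108290-37108539 on the plus strand, the Car4 stretch at chr11:84957504-84957753 on the plus strand and the Rgcc stretch at chr14:79301636-79301885 on the minus strand.
Cav1: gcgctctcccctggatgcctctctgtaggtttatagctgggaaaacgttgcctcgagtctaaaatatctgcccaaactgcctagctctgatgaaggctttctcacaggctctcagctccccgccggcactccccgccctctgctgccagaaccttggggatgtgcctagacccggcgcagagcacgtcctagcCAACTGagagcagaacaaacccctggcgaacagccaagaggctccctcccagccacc
Meox2: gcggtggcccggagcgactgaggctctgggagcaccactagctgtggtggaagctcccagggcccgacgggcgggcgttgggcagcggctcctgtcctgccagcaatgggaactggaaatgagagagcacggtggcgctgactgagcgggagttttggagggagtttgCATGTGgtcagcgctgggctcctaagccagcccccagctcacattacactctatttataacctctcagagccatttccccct
Car4: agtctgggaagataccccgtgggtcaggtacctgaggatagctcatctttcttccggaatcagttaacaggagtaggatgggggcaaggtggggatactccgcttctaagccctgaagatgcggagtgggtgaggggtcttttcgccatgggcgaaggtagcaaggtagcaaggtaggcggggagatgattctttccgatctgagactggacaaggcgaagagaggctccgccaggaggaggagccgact
Rgcc: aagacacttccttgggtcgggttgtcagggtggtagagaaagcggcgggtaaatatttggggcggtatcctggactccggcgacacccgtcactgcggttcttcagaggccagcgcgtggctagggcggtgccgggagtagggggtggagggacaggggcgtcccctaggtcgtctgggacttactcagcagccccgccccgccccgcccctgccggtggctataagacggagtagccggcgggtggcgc
An E-box stood 57 bases before the Cav1 start, as CAACTG, and 82 bases before the Meox2 start, as CATGTG. Car4 and Rgcc held none in this window, and 66.2% of 32851 promoter stretches of the same length held at least 1. The homeobox core TAATTA, which factors of the Meox kind can bind, was in none of these stretches and in 4.84% of all. The consensus PPAR response element, a direct repeat read by a family of fatty acid receptors, was in none of them and in 0.0335% of all. The GC box GGGCGG occurred 5 times before Rgcc, 3 of them in a row with shared end letters, and once each before Cav1 and Meox2, against 32.7% of all stretches with at least 1. The core motif AGGAAG of ETS factors, a family with many endothelial members, was found once before Rgcc and in 29.5% of all stretches. The TATA box TATAAA was found only on the opposite strand, where the printed strand reads TTTATA. These matches lay 29 bases before the Meox2 start and 221 bases before that of Cav1. On either strand, 12.4% of all stretches held at least 1. Both strands were searched. A match is a description of the letters and not of binding.

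The libraries held 1237675 to 4738307 counts, without a difference in range that separated the groups. Genes were tested by the quasi-likelihood F-test of edgeR, and p values were adjusted after Benjamini and Hochberg. Of 12301 genes, 69.5% passed an adjusted p of 0.05. Values are given as CPM, which are counts relative to the library size after TMM scaling, a trimmed mean of the log ratios between libraries. The heart was recognised by cardiomyocyte markers, 8 of which summed to 57991 to 72069 CPM in sham and to 1935 to 22204 CPM in the IZ. The highest IZ value was that of IZ replicate 1, and the other 8 IZ libraries reached at most 4691 CPM. The mitochondrially encoded share of counts was 22.9 to 32.4% in sham, 19.5% in IZ replicate 1 and 4.22 to 6.78% in the other IZ libraries. IZ replicate 1 thus stood apart from its group, and values of named genes that it moved by over 1.5-fold are given with and without it.

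All 7 capillary lipid transport genes were lower in the IZ than in sham and passed the test, against 33.1% of all genes tested that were called lower and 36.3% that were called higher. The log2 fold changes (IZ minus sham) ran from -4.03 for Car4, a 16.3-fold lower level, to -0.71 for Meox2, a 1.64-fold lower level. Their median was -1.72, and that of all genes tested was 0.05. In bulk tissue, fewer cells of a type and less RNA per cell cannot be told apart. With total counts alone as the scaling, the median of all genes shifted to 1.13, and Cav1 and Meox2 then turned to positive values of 0.34 each. Relative to that shifted median the 7 genes lay between -4.16 for Car4 and -0.79 for Cav1 and Meox2. Under DESeq2 size factors, the same distances to the median ran from -4.08 to -0.77. A change of scaling moves all genes by nearly the same amount, so that these distances cannot show which scaling is right.

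**Figure D1:**
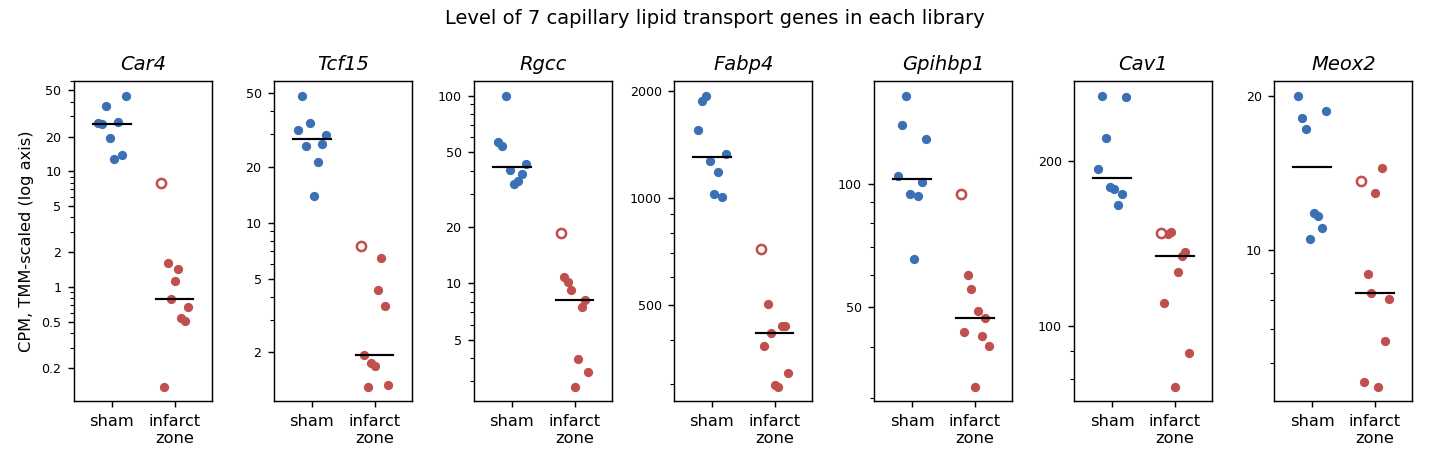
Level of each gene in 8 sham (blue) and 9 infarct zone (red) libraries, in TMM-scaled CPM on a log axis that differs between panels. Bars are medians, the open circle is IZ replicate 1 and panels run from the largest to the smallest fall. Car4 ran from 12.8 to 45.1 CPM in sham and from 0.138 to 7.90 CPM in the IZ, whereas the Meox2 groups overlapped.

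Among the genes that handle fatty acids themselves, Fabp4 was the most abundant of the 7 in every library. It lies at chr3:10204088-10208576 on the minus strand of GRCm38 (ENSMUSG00000062515). In sham it had 1009 CPM in the lowest library, 1304 at the median and 1943 in the highest. In the IZ the lowest library had 295 CPM, the median was 417 and the highest library, IZ replicate 1, had 719. All 9 IZ libraries were below all 8 sham libraries, a separation seen downward in 16.5% of all genes tested. The mean fell from 1400 ± 361 CPM (SD, n = 8) to 424 ± 131 CPM (SD, n = 9). The log2 fold change was -1.72 ± 0.19 (SE, adjusted p = 3.90e-08), which left 30.3% of the sham level.

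Gpihbp1, the docking protein for lipoprotein lipase (chr15:75596628-75599481, plus strand, ENSMUSG00000022579), fell less. Sham libraries had 65.7 CPM at the lowest, 103 at the median and 164 at the highest. IZ libraries had 32.0 CPM at the lowest, 47.1 at the median and 94.4 at the highest. The highest was again IZ replicate 1, the only 1 of the 9 IZ libraries within the sham range. The log2 fold change was -1.10 ± 0.19 (SE, adjusted p = 1.49e-05), and without IZ replicate 1 it was -1.28. Gpihbp1 was no longer called with total counts alone (log2 fold change -0.07, adjusted p = 0.705), with the median of all genes at 1.13.

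The partner of Gpihbp1, lipoprotein lipase (Lpl), which is made mainly by cardiomyocytes and splits triglycerides, fell far more. It averaged 5068 ± 421 CPM over the sham libraries (SD, n = 8) and 564 ± 498 CPM over the IZ libraries (SD, n = 9), with a log2 fold change of -3.17 ± 0.32 (SE, adjusted p = 9.49e-09). Within each library, the log2 ratio of Gpihbp1 to Lpl counts rose from -5.55 ± 0.50 (SD, n = 8) in sham to -3.25 ± 0.60 (SD, n = 9) in the IZ, and the groups did not overlap. The difference of 2.30 had p = 8.23e-05 in an exact two-sided permutation test over all 24310 splits, the smallest value this test can give, and p = 0.000123 after adjustment over the 6 gene pairs compared. Angptl4, a secreted inhibitor of lipoprotein lipase, changed in the opposite direction to both. It rose from 17.7 ± 9.34 to 67.2 ± 28.2 CPM (log2 fold change 1.93, adjusted p = 2.83e-06).

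Of 17 tested genes that act with Fabp4 and Gpihbp1 in fatty acid uptake, 9 fell, 5 rose and 3 did not pass the test, with a median log2 fold change of -0.59. The median was 0.49 with total counts alone, where Pparg and Lmf1, a maturation factor for lipases, changed sign. Cd36, the fatty acid receptor of endothelium and muscle, fell from 1080 to 1313 CPM in sham to 157 to 433 CPM in the IZ (log2 fold change -2.32, adjusted p = 8.11e-11). Vldlr, a lipoprotein receptor (-3.14, or -3.99 without IZ replicate 1), and Acsl1, which activates fatty acids for oxidation (-3.55), fell as well. So did Slc27a1, a transporter (-1.29, but uncalled at -0.22 with total counts alone, adjusted p = 0.120). Aqp7, a glycerol channel of capillaries, had -3.34, or -4.13 without IZ replicate 1. Vegfb, a growth factor secreted by cardiomyocytes that is known to steer endothelial fatty acid transport, had a log2 fold change of -2.79, or -3.45 without IZ replicate 1. The 3′ end of Slc27a1 holds a stretch of at least 95% identity to other genes. The scavenging receptor Lrp1 (log2 fold change 1.85) and the transporter Slc27a3 (2.56) rose. Pparg, a fatty acid-sensing nuclear receptor known to induce Fabp4, had a log2 fold change of -0.42 ± 0.28 (SE, adjusted p = 0.190), and Scarb1, the receptor for high density lipoprotein, one of 0.35 (adjusted p = 0.119). Scarb1 was called higher without IZ replicate 5 (0.43, adjusted p = 0.0456), with upper quartile scaling (0.46, adjusted p = 0.0418) and with total counts alone (1.41, adjusted p = 7.88e-07).

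The fatty acid binding proteins diverged. Fabp5, the form found in endothelium, macrophages and skin, was 13.2 to 34.3 CPM in sham and rose to 64.6 to 235 CPM in the IZ (log2 fold change 2.68, adjusted p = 7.55e-10), with all 9 IZ libraries above all sham libraries, as in 16.6% of all genes tested. Fabp3, the form of cardiomyocytes, had the lowest value of the list (log2 fold change -3.67, or -4.72 without IZ replicate 1), and part of its 3′ end is near-identical to the pseudogene Fabp3-ps1, so that its counts are uncertain. The log2 ratio of Fabp4 to Fabp5 was 5.91 ± 0.61 (SD, n = 8) in sham and 1.54 ± 0.78 (SD, n = 9) in the IZ. It lay between 5.06 and 6.66 in sham and between 0.79 and 3.47 in the IZ, a difference of -4.37 with p = 8.23e-05 in the exact permutation test and 0.000123 after adjustment over the 6 pairs. Fabp4 remained the more abundant of both in every library. Summed markers of macrophages, which can express both proteins, were 358 to 521 CPM in sham and 1874 to 5083 CPM in the IZ, and their part in these values was not tested. Summed adipocyte markers were 2.17 to 29.7 CPM in sham and 0 to 223 CPM in the IZ, with Ucp1 at 0 in all IZ libraries. The 3 IZ libraries with the highest adipocyte sums were replicate 2 (223 CPM), replicate 7 (72.0 CPM) and replicate 3 (47.8 CPM). Their Fabp4 levels were 385, 436 and 503 CPM against an IZ median of 417, and the part of adipocytes in the Fabp4 values was not tested.

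**Figure D2:**
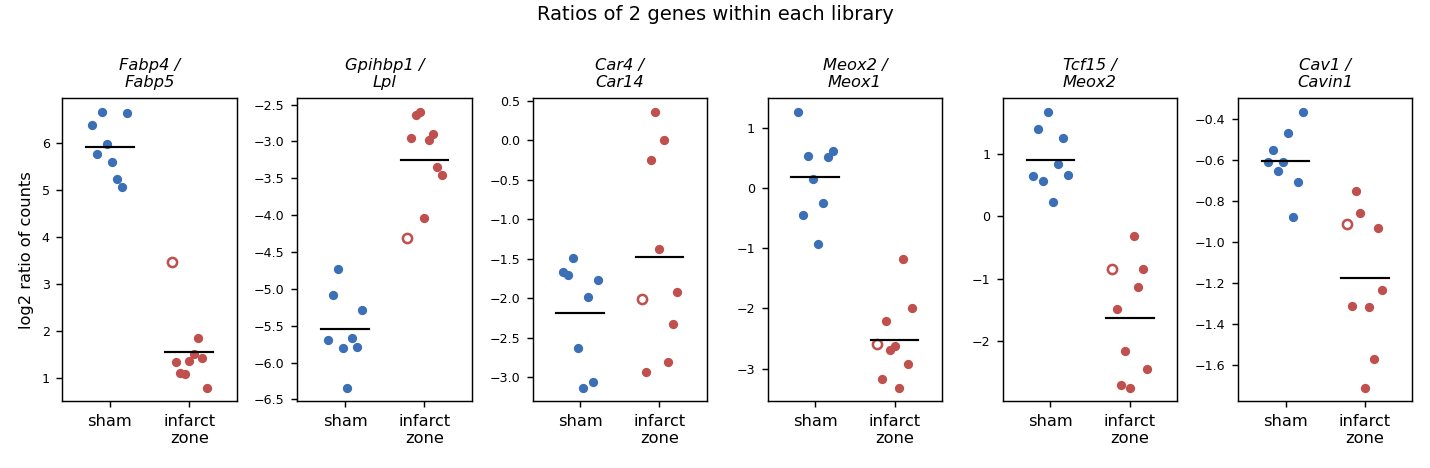
Log2 ratio of the counts of 2 genes within each of 8 sham (blue) and 9 infarct zone (red) libraries, with 0.5 added to each count. Bars are group means and the open circle is IZ replicate 1. The groups did not overlap for 4 of the 6 pairs, whereas the Car4 to Car14 and Cav1 to Cavin1 ratios overlapped.

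Cav1 (chr6:17306335-17341452, plus strand, ENSMUSG00000007655) was the second most abundant of the 7 genes in all 17 libraries. Its lowest, median and highest sham values were 166, 186 and 263 CPM. The IZ values were 77.4, 134 and 148 CPM, and all 9 were below the sham range. The log2 fold change was -0.72 ± 0.14 (SE, adjusted p = 1.18e-04) under TMM scaling and turned to 0.34 (adjusted p = 0.0458) with total counts alone, where the median of all genes was 1.13. A second gene model on the other strand, Gm15581, overlaps Cav1 and had no count in any library.

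Of 9 tested genes of the caveola coat, 6 fell, 2 rose and 1 did not pass the test, with a median log2 fold change of -1.19, which was -0.12 with total counts alone. The muscle forms Cav3 (-2.34) and Cavin4 (-3.19, or -3.97 without IZ replicate 1) fell most, together with the endothelial coat protein Cavin2 (-1.95) and the membrane-bending proteins Pacsin3 (-1.93) and Pacsin2 (-1.19, but uncalled at -0.12 with total counts alone). Cav2, which forms hetero-oligomers with Cav1, fell less (-0.55, adjusted p = 0.0100, but 0.52 with total counts alone). Cavin3 (1.66) and Ehd2 (0.75), an ATPase at the neck of caveolae, rose. Cavin1, the coat protein that all caveolae need, averaged 309 ± 44.9 CPM over the sham libraries (SD, n = 8) and 278 ± 52.8 CPM over the IZ libraries (SD, n = 9), with a log2 fold change of -0.15 ± 0.13 (SE, adjusted p = 0.308) that was 0.92 with total counts alone. The log2 ratio of Cav1 to Cavin1 does not depend on the scaling. It was -0.60 ± 0.15 in sham (SD, n = 8) and -1.18 ± 0.33 in the IZ (SD, n = 9), a difference of -0.57 (exact permutation test p = 0.000247, 0.000296 after adjustment over 6 pairs) with 7 of 9 IZ libraries below the sham range.

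Car4, the surface carbonic anhydrase (chr11:84957786-84966044, plus strand, ENSMUSG00000000805), changed most, and its fold change had rank 56 from the lowest of the 12301 genes tested. Its counts were 25 to 82 per library in sham. In the IZ they were 22 in replicate 1, 10 in replicate 3 and 1 to 4 in the other 7 libraries. In CPM, sham had 12.8 at the lowest, 25.8 at the median and 45.1 at the highest, and the IZ had 0.138, 0.784 and 7.90. The groups did not overlap, although IZ replicate 1 was far above the next IZ library at 1.63 CPM. The log2 fold change was -4.03 ± 0.44 (SE, adjusted p = 2.66e-08), and without IZ replicate 1 it was -4.87 ± 0.34 (SE, adjusted p = 3.80e-13). At 1 or 2 counts in 5 IZ libraries, the depth set how exactly the IZ level could be known.

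The other carbonic anhydrases measured did not share 1 direction. Car14, a membrane form of muscle, fell from 83.5 to 154 CPM in sham to 0.588 to 32.3 CPM in the IZ (log2 fold change -4.36, adjusted p = 2.63e-08). The highest IZ value was that of IZ replicate 1, without which the log2 fold change was -5.68. Car14 overlaps Aph1a on the opposite strand over 447 bases at its 3′ end, and its counts are uncertain. Car2, a cytosolic form, fell by 0.94 on the log2 scale (adjusted p = 0.00247) but had 0.12 with total counts alone. Car3, a form of fat and slow muscle, had a log2 fold change of 1.77 ± 0.86 (SE, adjusted p = 0.0715). This value was 0.72 without IZ replicate 2 and was called without IZ replicate 1 (1.91, adjusted p = 0.0257). It was also called without sham replicate 5 (2.17) and without IZ replicate 4, 5 or 9. The same held without a filter on low counts (1.83) and with total counts alone (2.91). The log2 ratio of Car4 to Car14 was -2.18 ± 0.66 (SD, n = 8) in sham and -1.47 ± 1.23 (SD, n = 9) in the IZ, a difference of 0.71 that did not pass (exact permutation test p = 0.170, also after adjustment). With 5 in place of 0.5 added to each count it was 1.26 and passed (adjusted p = 0.00107 in the same exact test), and as a difference in medians it was -0.050. The range of this ratio in the IZ, from -2.94 to 0.36, covered most of the sham range.

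Rgcc (chr14:79288756-79301645, minus strand, ENSMUSG00000022018) had 33.9 CPM in the lowest sham library, 41.9 at the median and 100.4 in the highest, sham replicate 3. The IZ libraries had 2.81, 8.18 and 18.7 CPM, with replicate 1 the highest, and all 9 were below sham. The log2 fold change was -2.52 ± 0.28 (SE, adjusted p = 3.30e-08), a 5.74-fold lower level. Without sham replicate 3 it was -2.32, so that the high library moved it by less than the standard error.

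The transcription factors Tcf15 and Meox2 fell to different extents. Tcf15 (chr2:152143561-152149097, plus strand, ENSMUSG00000068079) had 13.8 CPM at the lowest, 28.2 at the median and 48.4 at the highest in sham, and 1.31, 1.93 and 7.54 CPM in the IZ. The groups did not overlap, and the log2 fold change of -3.26 ± 0.31 (SE, adjusted p = 3.59e-09) left 10.5% of the sham level. Counts of Tcf15 were 27 to 72 per library in sham and 3 to 21 in the IZ, so that depth limited its IZ level. Meox2 (chr12:37108540-37179534, plus strand, ENSMUSG00000036144) had 10.5, 14.5 and 20.1 CPM in sham and 5.40, 8.24 and 14.5 CPM in the IZ. Of the 9 IZ libraries, 6 were below all sham libraries and 3 lay within the sham range. The log2 fold change was -0.71 ± 0.22 (SE, adjusted p = 0.00684, 95% confidence interval -1.17 to -0.25) and turned to 0.34 (adjusted p = 0.157) with total counts alone. A noncoding gene model within a Meox2 intron, Gm48617, had no count in any library.

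The shift between these partners was read from their ratio, which needs no scaling. The log2 ratio of Tcf15 to Meox2 counts was 0.91 ± 0.49 (SD, n = 8) in sham and -1.63 ± 0.91 (SD, n = 9) in the IZ. Sham libraries lay between 0.23 and 1.68 and IZ libraries between -2.75 and -0.31, so that Tcf15 was the higher of both in every sham library and Meox2 in every IZ library. The difference was -2.54 (exact permutation test p = 8.23e-05, 0.000123 after adjustment over 6 pairs). Meox1, the relative of Meox2 that is known from fibroblasts and the embryonic somite, rose from 13.8 ± 6.50 to 53.7 ± 18.1 CPM (log2 fold change 1.97, adjusted p = 1.70e-07). The log2 ratio of Meox2 to Meox1 went from 0.19 ± 0.70 (SD, n = 8) to -2.52 ± 0.65 (SD, n = 9) without overlap, a difference of -2.71 with the same p values in the exact permutation test. Scx, a tendon and fibroblast factor related to Tcf15, rose by 0.70 on the log2 scale (adjusted p = 0.00912). Summed fibroblast markers were 1269 to 2400 CPM in sham and 9286 to 16180 CPM in the IZ, and their part in the Meox1 and Scx values was not tested. Of 12 tested relatives of the 7 genes in all, among them Ly6a and Ly6e, 7 fell and 4 rose, with a median of -0.59 that was 0.47 with total counts alone, where Ly6a, Car2 and Cav2 changed sign.

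The order of the levels also differed between the groups. In sham it was Fabp4, Cav1, Gpihbp1, Rgcc, then Tcf15 and Car4, and last Meox2. Each neighbour was higher than the next in 8 of 8 libraries, except Tcf15 and Car4, whose order held in 5 of 8. In the IZ the order was Fabp4, Cav1, Gpihbp1, then Meox2 and Rgcc, then Tcf15 and last Car4. The first 3 held their rank in 9 of 9 libraries, Meox2 was above Rgcc in 4 of 9, Rgcc above Tcf15 in 8 of 9 and Tcf15 above Car4 in 7 of 9.

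To compare the genes with the endothelium as a whole, counts were set against the summed counts of 25 pan-endothelial markers. The sum was 1265 to 2150 CPM in sham and 1056 to 1513 CPM in the IZ, with overlapping groups. Of these 25 markers 2 rose, 11 fell and 12 did not pass the test under TMM scaling, with a median log2 fold change of -0.32 and a range from -1.90 for Flt1, a VEGF receptor, to 1.22 for Cd93, a surface glycoprotein also found on myeloid cells. Scaled by total counts alone, the median was 0.75 and 19 of the 25 changed sign. Within this list, the 4 core markers lay between -0.35 for the receptor Tie1 and 0.11 for the transcription factor Erg, with none called in either direction at the adjusted threshold. Tie1 was called lower without IZ replicate 1 (-0.53, adjusted p = 0.00674) or sham replicate 8 (-0.44, adjusted p = 0.0485), and higher with total counts alone (0.70), as was Erg (1.19).

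Relative to the pan-endothelial sum, 6 of the 7 genes were still lower in the IZ, against 22.2% of all genes called lower and 45.2% called higher in this fit (67.4% in both directions). Car4 had a log2 fold change of -3.70 (adjusted p = 5.48e-10), Tcf15 of -2.90 (1.18e-10), Rgcc of -2.20 (1.35e-09), Fabp4 of -1.38 (1.28e-07), Gpihbp1 of -0.77 (1.33e-04) and Cav1 of -0.39 (0.0280), with adjusted p from edgeR in brackets. Without IZ replicate 1 the value of Car4 was -4.47. Meox2 had -0.36 with a 95% confidence interval of -0.79 to 0.07 and did not pass (adjusted p = 0.127). Per 1000 pan-endothelial counts, Fabp4 ranged from 741 to 1030 in the sham libraries and from 235 to 475 in the IZ libraries. Cav1 had 104 to 156 in sham and 71.4 to 117 in the IZ, and 6 of 9 IZ libraries were below the sham range. Meox2 had 8.12 to 11.2 in sham and 4.31 to 11.9 in the IZ, with 6 IZ libraries below all sham libraries and 1 above them. All 9 above all 8 would be the pattern of 18.0% of all genes, and all 9 below that of 9.17%. Among the 7 genes, no overlap downward held for Car4, Tcf15, Rgcc and Fabp4.

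Both small effects changed with the reference. With the 4 core markers Meox2 had -0.50 and was called (adjusted p = 0.0490), as it was without the 4 subtype-varying markers (-0.54, adjusted p = 0.0253). Over all alternatives of this fit Meox2 ranged from -0.54 to -0.098, and at -0.098 it was not called. Cav1 was not called without the 5 markers that leukocytes or stroma also express (-0.11, adjusted p = 0.545). It was not called either without sham replicate 8 (-0.34, adjusted p = 0.0660), without IZ replicate 5 (-0.34, adjusted p = 0.0597), without a filter on low counts (-0.39, adjusted p = 0.0924) or with the replicate number as a block (-0.37, adjusted p = 0.0784). Car4, Tcf15, Rgcc, Fabp4 and Gpihbp1 were called lower with each of these references and with each library left out in turn.

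**Figure D3:**
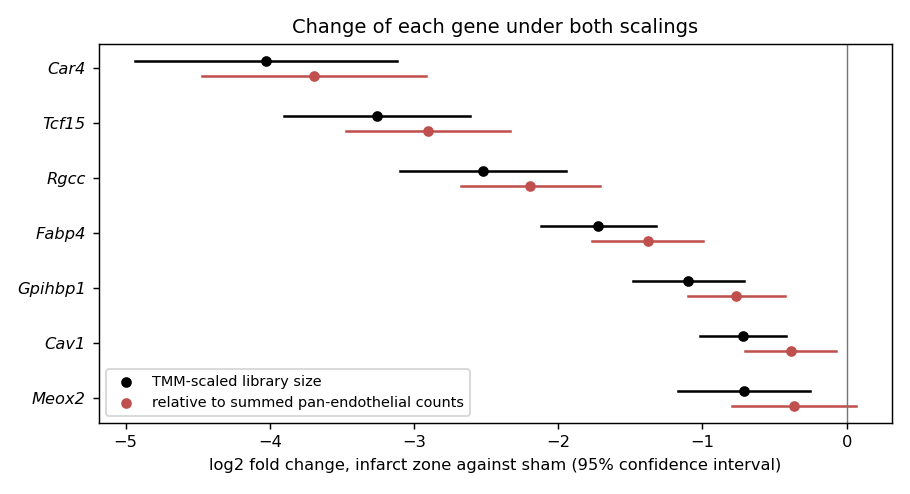
Log2 fold change of each gene (IZ minus sham) with its 95% confidence interval, under TMM-scaled library sizes (black) and relative to the summed counts of 25 pan-endothelial markers (red). All 7 black intervals and 6 of 7 red ones were below 0. With total counts alone, not drawn, Cav1 and Meox2 turned to positive values.

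**Figure D4:**
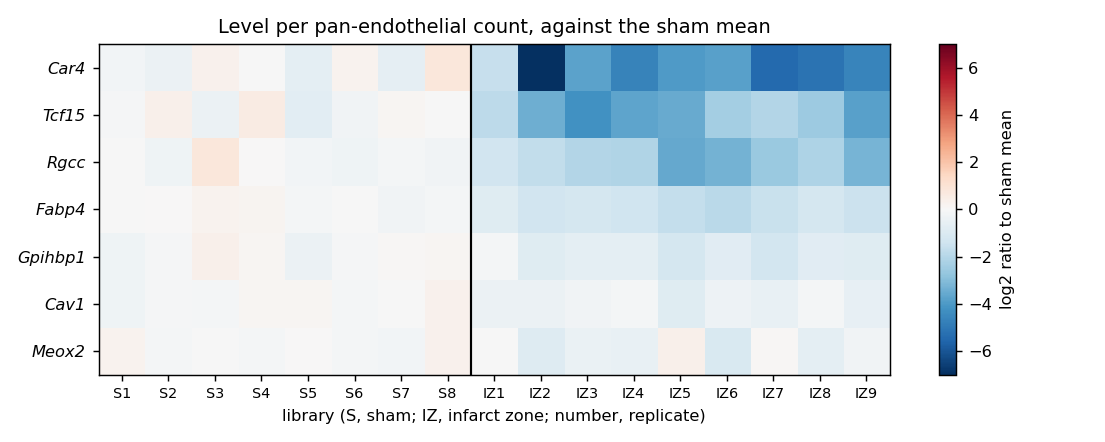
Level of each gene per pan-endothelial count in each library, as the log2 ratio to the mean of the 8 sham libraries (blue lower, red higher). Car4, Tcf15, Rgcc and Fabp4 were lower in all 9 infarct zone libraries than in any sham library, and IZ replicate 1 had the palest blue of its group for Car4, Tcf15, Rgcc, Fabp4 and Gpihbp1.

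Other markers of heart capillaries fell too. All 7 tested were lower in the IZ, with a median log2 fold change of -1.55, and with total counts alone none changed sign and 5 were called lower. Aqp7 fell most (-3.34, or -4.13 without IZ replicate 1), although its 3′ end holds a stretch of at least 95% identity to many other genes. Its counts were 15 to 41 in sham and 1 to 20 in the IZ, or 1 to 6 without IZ replicate 1. Aqp7 also belongs to the fatty acid uptake partners above. It was followed by Btnl9 (-2.57), an immunoglobulin-like surface protein, and Cd300lg (-2.38), a mucin-like receptor of capillary endothelium. The nucleoside transporter Slc28a2 (-1.55), whose 3′ end is near-identical to Gm14085, the scaffold protein Slc9a3r2 (-1.47), the lipase Mgll (-1.36) and Ly6c1 (-1.33) fell less. The 3′ end of Ly6c1 is near-identical to Ly6c2 and shares 263 bases at 96.6% identity with Ly6a. Over all libraries Ly6a had 6754 counts and Ly6c2 had 447, and the counts of Ly6c1 and Ly6a are uncertain. Relative to the pan-endothelial sum all 7 were lower as well, from -2.99 for Aqp7 to -0.98 for Ly6c1. Aqp7 had -3.69 there without IZ replicate 1.

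Markers of other vessel types did not share 1 direction. The median log2 fold change of the 5 tested lymphatic markers was -1.27, or -0.22 with total counts alone. Of 6 angiogenic endothelial markers 5 rose and none fell, led by Plvap, a diaphragm protein of fenestrated endothelium, at 2.35, and Adm had -0.43 (adjusted p = 0.144), -0.63 without IZ replicate 1 (adjusted p = 0.0246) and 0.61 with total counts alone. Of 7 tested arterial markers 2 rose and 3 fell, from 1.03 for the gap junction protein Gja5 to -0.99 for the Notch ligand Dll4, which had 0.08 with total counts alone. Of 4 tested venous markers 1 rose and 1 fell, Nr2f2 (0.41), the venous transcription factor, and Ephb4 (-0.39), an ephrin receptor with 0.67 under total counts alone. Ephb4 lost its call without sham replicate 1, 2 or 8 and without IZ replicate 2, 3, 4, 5, 7 or 9. It was not called either without a filter on low counts (-0.33), with the replicate number as a block (-0.34) or with upper quartile scaling (-0.28). Of 5 tested lymphatic markers 1 rose and 3 fell, from 3.34 for Pdpn, which fibroblasts also express, to -2.81 for Prox1, which cardiomyocytes also express and which had -3.56 without IZ replicate 1.

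**Figure D5:**
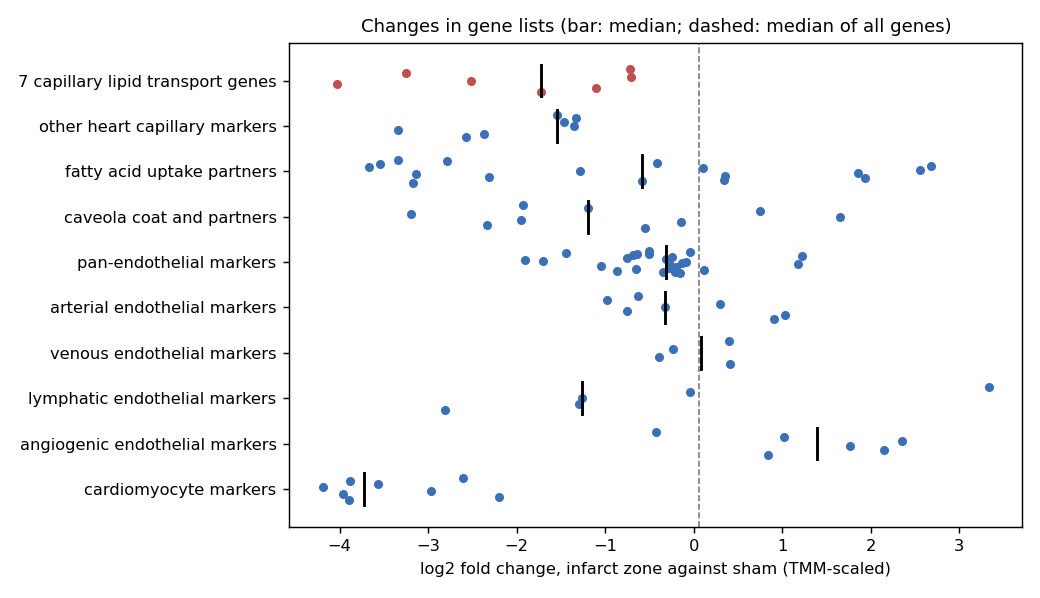
Log2 fold change (IZ minus sham, TMM-scaled) of each tested gene in 10 lists, the 7 capillary lipid transport genes in red. Black bars are list medians, from -3.72 for cardiomyocyte markers to 1.39 for angiogenic endothelial markers, and the dashed line is the median of all genes tested at 0.05. The median of the pan-endothelial markers changed sign to 0.75 with total counts alone.

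Markers of the other cell types in the tissue moved at the same time, and their part in the falls of the 7 genes was not tested. All 8 cardiomyocyte markers fell, from -2.20 for Tnnt2 to -4.19 for Tnni3 (-5.0 without IZ replicate 1), all 7 tested macrophage markers rose, from 1.15 for Mrc1 to 4.09 for Cd68, and of 7 fibroblast markers 6 rose, led by Col1a1 (4.0), while Dcn had 0.04 (adjusted p = 0.840), or 1.10 with total counts alone (adjusted p = 1.54e-07). Of 8 smooth muscle and pericyte markers 3 rose and 4 fell, from 2.79 for Tagln to -2.72 for Abcc9. No adipocyte or T cell marker passed the filter on low counts, although adipocyte markers were high in a few IZ libraries, and summed T cell markers were at most 2.18 CPM in sham and 15.1 CPM in the IZ.

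Within the groups, the 7 genes varied together in part. After centring each group on its mean, all 21 pairs of the 7 genes had a positive Pearson correlation of log2 CPM over the 17 libraries, with a median of 0.51. The highest was 0.88, for Fabp4 and Rgcc, and the lowest was 0.24, for Meox2 and Cav1. Values of 1 library share its depth and scaling, and no test was made. Without IZ replicate 1 the correlation of Car4 and Rgcc dropped from 0.39 to 0.04 and that of Car4 and Tcf15 from 0.42 to 0.10, whereas Fabp4 and Rgcc kept 0.84.

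Among the 9282 genes whose mean reached 10 CPM, leaving out the 7 genes themselves, the most alike in this measure was Flt1 for Fabp4 (r = 0.87), for Gpihbp1 (0.84) and for Rgcc (0.89), over 17 libraries each. Fabp4 was followed by Aplnr (0.85) and Adgrl4 (0.84), Gpihbp1 by Cavin2 and Tcim (0.81 each) and Rgcc by Ly6a (0.84) and Zfp428 (0.77). Cav1 was most like Esam (0.82), Htt (0.81) and Smg6 (0.81). The genes most like Car4 were Aars2 (0.85), Dnajc15 (0.85) and Ndufa5 (0.84), and those most like Tcf15 were Gtf2i (0.84), Mlycd (0.83) and Fam13a (0.82). Meox2 was most like Gm10110 (0.80), Abcg2 (0.77) and Nelfcd (0.77). Some of these values rested mainly on the IZ libraries. In sham alone Aars2 had 0.48 with Car4, Mlycd 0.44 with Tcf15 and Nelfcd 0.27 with Meox2. In the IZ alone these pairs had 0.97, 0.91 and 0.92. Other pairs were high in both groups, such as Flt1 with Rgcc (0.95 in sham, 0.87 in the IZ). These values were not computed without IZ replicate 1.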

How the data were processed

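RNA of 8 sham LV and 9 IZ samples was sequenced by MACE. The authors trimmed the reads with Cutadapt, mapped them to mm10 (Bowtie2 is named in the submitters' processing notes) and counted transcripts with HTSeq, and the deposited values are raw counts per gene. Merged groups of overlapping genes (35 features) were kept for library sizes. Positions were taken from GENCODE annotation of GRCm38, where 31521 identifiers matched.

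The counts were tested in edgeR 4.0.16 (R 4.3.3) with filterByExpr (minimum of 10 counts), TMM scaling and a quasi-likelihood F-test (two-sided) without covariates, with Benjamini-Hochberg adjustment over all 12301 genes at 0.05. A second fit used the log of the summed pan-endothelial counts as offset. The study itself used DESeq2, which was run here as an alternative (DESeq2 1.42.0). The log2 ratios of 6 gene pairs used 0.5 added to each count and an exact permutation test. Log2 CPM for correlations used a prior count of 1. Python 3.11.15, SciPy 1.17.1 and BLAST 2.17.0 (last 500 bases, at least 100 bases at 95% identity) were used. Motifs were searched as exact letters, and the fits were tested on simulated data. In the lists of fatty acid uptake partners, caveola genes, relatives and capillary markers every tested gene could be named, in the other lists the highest and lowest, and for likeness 3 genes per member. The 7 genes, the 16 other lists and the alternatives were chosen with earlier results of these data known. No library was a copy of another (chi-square per degree of freedom of at least 2.41). Alternatives were other scalings, filters, references and prior counts, a replicate block and the omission of each library.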

Additional observations from a re-analysis of the deposited data

Results flagged for a closer look

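In 26 groups of values tested (the CPM of the 7 genes and the 6 log2 ratios, in each group), 6 had a library at one end that lay far from the rest by Dixon's criterion, which chance meets in about 1 of 20 groups. Of these 6, 5 were the same library, IZ replicate 1. It had 719 CPM of Fabp4 (next 503), 94.4 CPM of Gpihbp1 (next 59.7), 7.90 CPM of Car4 (next 1.63) and 18.7 CPM of Rgcc (next 10.8), in each case the highest of 9. Its log2 ratio of Fabp4 to Fabp5 was 3.47 (next 1.84). The same library had the highest cardiomyocyte marker sum of the IZ (22204 CPM, others 1935 to 4691) and the highest mitochondrial share (19.5%, others 4.22 to 6.78%), and the lowest macrophage marker sum (1874 CPM, others 3401 to 5083) and fibroblast marker sum (9286 CPM, others 11204 to 16180). Their part in the levels of the 7 genes was not tested. Its pan-endothelial sum of 1513 CPM was the highest of the IZ, and the next was 1499 CPM. The other value was Rgcc in sham replicate 3 at 100.4 CPM (next 56.9).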

How the results depend on the processing

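The calls of Car4, Tcf15, Rgcc and Fabp4 kept their direction and significance under all alternatives that tested them, with log2 fold changes without each library in turn of -4.87 to -3.73, -3.58 to -3.08, -2.74 to -2.32 and -1.89 to -1.65. With total counts alone, the members called lower dropped from 7 to 4 and 1 (Cav1) was higher. Gpihbp1 then had -0.071 and was not called. The values that turned were 0.34 for Cav1, 0.34 for Meox2, 0.64 for Pparg, 0.70 for Tie1, 0.92 for Cavin1, 0.67 for Ephb4, 0.52 for Cav2, 0.081 for Dll4, 0.49 for Lmf1, 0.61 for Adm, 0.43 for Ly6a and 0.12 for Car2, with the median of all genes moved from 0.05 to 1.13 and the share of calls that were higher from 52.3% to 85.7%. At a minimum mean of 50 counts Car4, Meox2 and Tcf15 were not tested, 4 members were called lower and 5239 genes were called in all (8544 otherwise), or 4975 relative to pan-endothelial counts (8294 otherwise), with 6734 genes tested. Relative to pan-endothelial counts, Cav1 was not called without a filter (-0.39), with the replicate block (-0.37) or without leukocyte-expressed markers (-0.11), and without each library in turn it had -0.42 to -0.34, uncalled without sham replicate 8 or IZ replicate 5. Meox2 was called there with the core reference (-0.50) and without subtype-varying markers (-0.54), and without each library in turn it had -0.46 to -0.29. Over all alternatives of that fit Meox2 ranged from -0.54 to -0.098, and at -0.098 it was not called. The Car4 to Car14 ratio was called with a prior count of 5 (difference 1.26) and turned to -0.050 as a difference in medians. Dcn had -0.052 to 0.11 without each library in turn and was called at 1.10 with total counts alone. The causes were not tested. Samples that share a replicate number had deviations that correlated weakly (r from -0.22 to 0.13), and 1 of 8 correlated best with its own number. The labels give no pairing, and a weak correlation cannot show that there was none. The replicate block changed no other call of the 7 genes. Under TMM it gave -0.67 for Cav1 and 8078 called genes. Counts of 1 to 4 limit Car4 in most IZ libraries, and counts of 3 to 21 limit Tcf15 and its ratio to Meox2 there.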
